A study of Mus musculus with 24 samples.

Results

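Expression of 8 genes linked to dendritic cell maturation (Fscn1, Ccr7, Cd83, Cd200, Marcksl1, Tmem123, Il4i1 and Cacnb3) was described in dendritic cells sorted from mouse spleen. They are 8 of the 39017 genes in the deposited count table, and each was found there by its symbol. The genes were chosen by the measured levels and genotype differences of these same libraries. Their values below are therefore a description: differences and calls that a model gave for them are printed beside those of all genes, and no p-value of theirs is used as a test. The 24 libraries came from F1 mice of the C57BL/6 and FVB/N strains whose Flt3 genotype was either +/+ (WT, 12 libraries) or ITD/+ (ITD, 12 libraries, 1 Flt3 allele carrying an internal tandem duplication). FLT3 is a receptor kinase whose ligand supports the formation of dendritic cells. There were 5 sorted subsets. PDC is the usual short form for plasmacytoid dendritic cells. CD8+ cells were split into a canonical (C_CD8) and a non-canonical (NC_CD8) kind, and CD11b+ cells by their Esam level into Esamhi and Esamlo. Per genotype, n was 3 for both CD8+ subsets and 2 for PDC, Esamhi and Esamlo. The labels place PDC libraries in experiment batches A and B, both CD8+ subsets in B, C and D, and both CD11b+ subsets in C and D. For every subset in a batch there was 1 library per genotype, which gave 12 pairs. The sources used here do not give the ages of the mice or say whether a library came from 1 animal or from a pool. The duplication is inherited, so other cells of the ITD mice carried it as well.

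Dendritic cells sample antigen in tissues and, when they mature, reorganise their cytoskeleton, raise costimulatory ligands on their surface and move toward the T cell zones of lymphoid organs. CCR7, the receptor of the chemokines CCL19 and CCL21, guides that movement, and fascin (Fscn1) bundles the actin filaments of the long protrusions that give these cells their name. CD83 is a surface protein widely used to mark mature dendritic cells. In the spleen a minor part of each conventional subset is in this state at rest, so a level measured in sorted bulk RNA can reflect how many cells are mature as well as how much RNA each holds. In these bulk libraries, fewer cells of a type and less RNA per cell cannot be told apart.

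The other 5 genes are often found together with Fscn1 and Ccr7 in mature dendritic cells. MARCKSL1 binds actin and the inner face of the plasma membrane and is related to the kinase substrate MARCKS. CD200 is a surface glycoprotein and the ligand of the inhibitory receptor CD200R1. IL4I1 is a secreted amino acid oxidase that acts on aromatic amino acids. Tmem123 encodes a heavily glycosylated membrane protein, and Cacnb3 encodes an auxiliary beta subunit of voltage-gated calcium channels. All 8 are protein-coding genes. In mm10 coordinates Fscn1 lies at chr5:142960343-142973185 (+), Ccr7 at chr11:99144196-99155077 (-), Cd83 at chr13:43784775-43803132 (+) and Cd200 at chr16:45382135-45409053 (-). Marcksl1 lies at chr4:129513581-129515985 (+), Tmem123 at chr9:7764041-7794333 (+), Il4i1 at chr7:44816387-44840809 (+) and Cacnb3 at chr15:98630840-98644529 (+).

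The reads of 2 of these genes may be shared with others. Of the 4080 bp of annotated Il4i1 exons, 3505 bp overlap exons of genes on the opposite strand, mostly Tbc1d17, and 77.1% of all 50-base stretches of its exons also occur in another gene. The sources used here do not say whether reads were counted by strand, so the level of Il4i1 is uncertain. Of the stretches of Marcksl1 exons, 1.61% occurred elsewhere, and the share was 0 for the other 6 genes.

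The bases before the annotated start are shown for 3 genes whose pattern over the samples differed: Fscn1, higher in ITD in every subset; Marcksl1, higher in most pairs; and Cd200, higher in ITD in some subsets and lower in others. RefSeq (GRCm38.p6) gave start sites for 6 of the 8 genes, that is for all but Ccr7 and Cd83. Each line holds the 120 bases upstream of the RefSeq start, 5′ to 3′ along the gene, with motif matches in capitals. For Fscn1 that start lies inside the gene as placed above, and the last 12 bases printed fall in an annotated exon.
Fscn1, chr5:142960235-142960354, + strand: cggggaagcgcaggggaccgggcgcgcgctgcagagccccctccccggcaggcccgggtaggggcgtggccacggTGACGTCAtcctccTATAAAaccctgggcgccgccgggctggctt
Marcksl1, chr4:129513461-129513580, + strand: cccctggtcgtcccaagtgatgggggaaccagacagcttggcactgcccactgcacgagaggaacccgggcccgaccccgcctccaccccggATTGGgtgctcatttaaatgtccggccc
Cd200, chr16:45409054-45409173, - strand: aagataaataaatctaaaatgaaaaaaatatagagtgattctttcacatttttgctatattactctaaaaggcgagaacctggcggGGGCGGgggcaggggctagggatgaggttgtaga

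The capitals mark a cyclic AMP response element (TGACGTCA) and a TATA box (TATAAA) for Fscn1, a CCAAT box (here ATTGG, on the opposite strand) for Marcksl1 and a GC box (GGGCGG) for Cd200. The response element lay 45 to 38 bases and the TATA box 31 to 26 bases upstream of the RefSeq start of Fscn1. Over 32851 upstream windows of 250 bases in the RefSeq table, searched on both strands, 1.55% held TGACGTCA, 12.4% held TATAAA and 0.119% held both. The GC box was in 32.7% and the CCAAT box in 33.8% of all windows. Of the 6 genes, none had a match within 250 bases to the NF-kB motif (in 7.25% of all windows), to the STAT motif TTCNNNGAA (7.02%), to the AP-1 motif TGANTCA (6.75%) or to the interferon-stimulated response element (2.98%). The response element, TATA, CCAAT and GC motifs were added after the first 4 motifs had been searched. A match is a description of these letters only.

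Libraries held 11197145 to 22248404 counts, and 18093 genes passed a filter on low counts, all 8 of these genes among them. The subset labels were checked against defining markers. Siglech, a lectin receptor of plasmacytoid cells, was at 4509 to 5388 CPM (the read count scaled to the library's total, adjusted by edgeR's TMM factor) in PDC libraries and at most 291 CPM elsewhere. Xcr1, a chemokine receptor of cross-presenting cells, was at 575 to 1223 CPM in C_CD8 and at most 148 CPM elsewhere, and Esam was at 57.7 to 68.8 CPM in Esamhi against 3.93 to 14.3 CPM in Esamlo cells. NC_CD8 cells held only 6.96 to 148 CPM of Xcr1, with 113 to 291 CPM of Siglech. Flt3 itself was lower in ITD in 12 of 12 pairs, by a log2 difference of -0.65 to -0.01. Counts per gene do not show the duplication itself.

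Fscn1 was higher in ITD than in WT cells in each of the 5 subsets, and no ITD library of a subset was as low as any WT library of it. Of all genes, 4.7% (C_CD8) to 16.3% (Esamlo) lay above in this way within a subset. In PDC it was at 6.53 and 8.46 CPM in WT and at 23.7 and 23.4 CPM in ITD libraries (batches A and B). In C_CD8 cells it was at 254, 116 and 183 CPM in WT and at 609, 270.2 and 353 CPM in ITD libraries (batches B, C and D). In NC_CD8 cells it reached its highest levels, with 423, 318 and 502 CPM in WT and 885, 645 and 913 CPM in ITD libraries. In all 3 subsets the lowest ITD library stood above the highest WT library, by the least margin in C_CD8 cells. In Esamhi cells Fscn1 was at 152 and 203 CPM in WT and at 297 and 523 CPM in ITD libraries (batches C and D). In Esamlo cells it was at 56.5 and 68.5 CPM in WT and at 154 and 229.8 CPM in ITD libraries. The ITD mean was 3.14-fold the WT mean in PDC, 2.23-fold in C_CD8, 1.97-fold in NC_CD8, 2.31-fold in Esamhi and 3.07-fold in Esamlo cells.

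The level of Fscn1 also depended on the subset. The WT means were 414 ± 92.0 CPM (SD, n = 3) in NC_CD8, 184 ± 68.9 CPM (n = 3) in C_CD8, 178 ± 36.3 CPM (n = 2) in Esamhi, 62.5 ± 8.52 CPM (n = 2) in Esamlo and 7.50 ± 1.36 CPM (n = 2) in PDC. NC_CD8 over PDC was 55.3-fold. The libraries of C_CD8 and Esamhi cells overlapped in both genotypes, while those of all other neighbours in this order were apart. In batches C and D, which both subsets hold, Esamhi was above C_CD8 in each genotype. WT libraries held 152 and 203 CPM in Esamhi against 116 and 183 CPM in C_CD8 cells. ITD libraries held 297 and 523 against 270.2 and 353 CPM. PDC shared no batch with Esamlo cells, its neighbour. The order of the means was the same in ITD cells, where NC_CD8 over PDC was 34.6-fold.

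**Figure D1:**
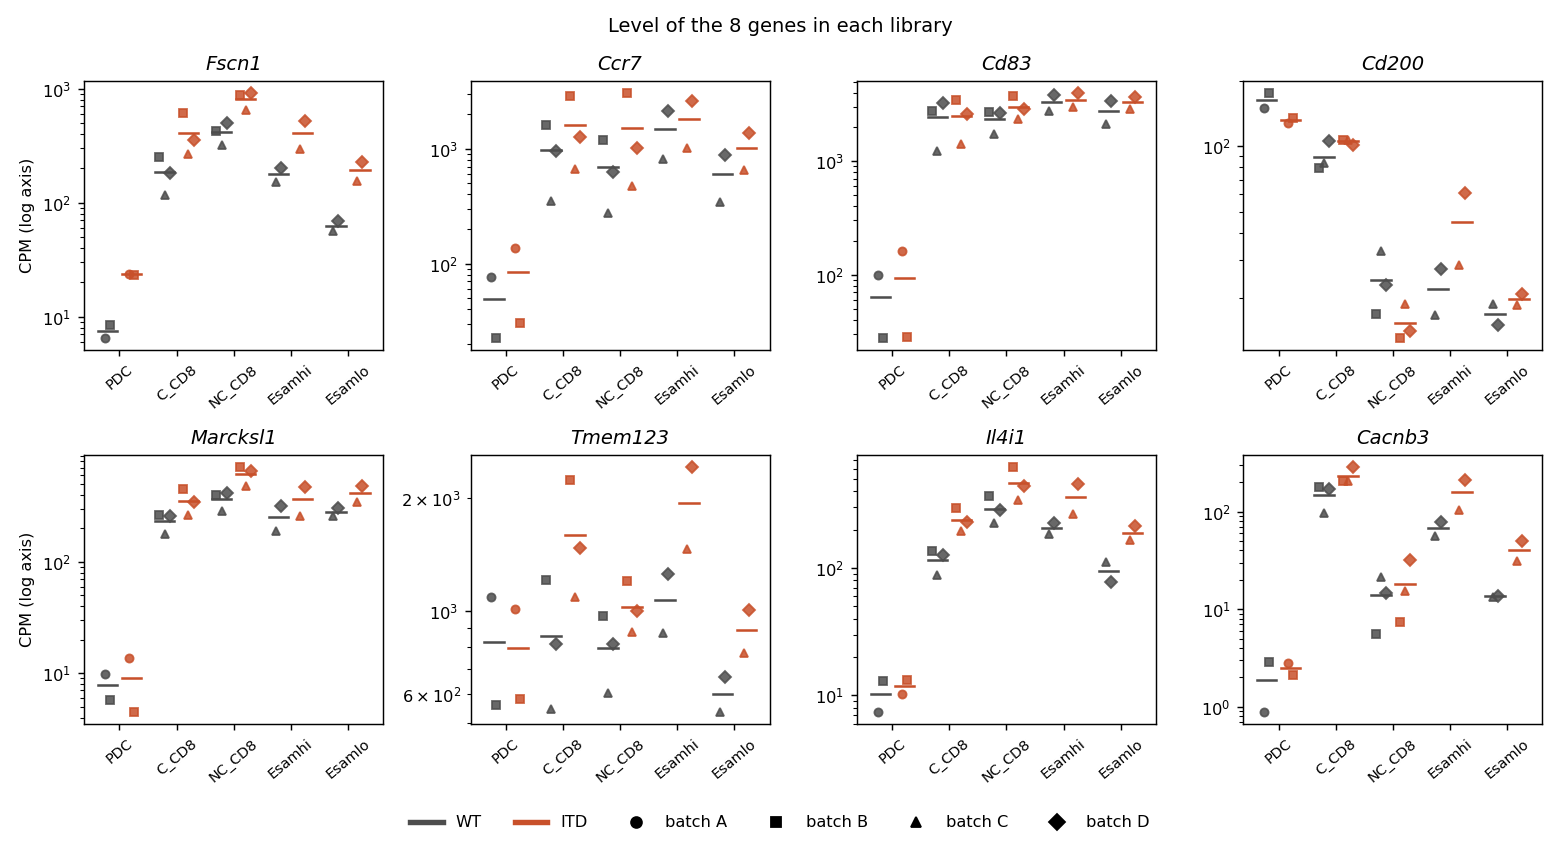
Level of each of the 8 genes (CPM, log axis, a separate scale per gene) in each library, by sorted subset; grey is WT, orange is ITD, marker shapes are batches and bars are group means (n = 2 or 3). The ITD libraries of Fscn1 lie above the WT libraries in all 5 subsets, while those of Ccr7 overlap in each subset; PDC is the lowest subset for 6 genes in both genotypes, all but Cd200 and Tmem123.

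Ccr7 was also higher in the ITD library of all 12 pairs, but its level varied more between batches than between genotypes. In C_CD8 cells it was at 1610.0, 348 and 965 CPM in WT and at 2860.1, 663 and 1276 CPM in ITD libraries (batches B, C and D). In NC_CD8 cells it was at 1185, 274 and 622 CPM in WT and at 3043, 475 and 1025 CPM in ITD libraries. In both CD8+ subsets and both genotypes, batch B was the highest and batch C the lowest. In Esamhi cells it was at 815 and 2138 CPM in WT and at 1014 and 2632 CPM in ITD libraries (batches C and D). In Esamlo cells it was at 343 and 875 CPM in WT and at 658 and 1372 CPM in ITD libraries. In PDC it was at 76.7 and 22.6 CPM in WT and at 138 and 30.7 CPM in ITD libraries (batches A and B). WT and ITD libraries overlapped in all 5 subsets.

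Within a group of 1 subset and genotype, the highest batch of Ccr7 was 2.09- to 6.40-fold the lowest (median 3.85-fold over 10 groups). The order of the batches was the same in WT and ITD cells in 5 of 5 subsets. For Fscn1 the corresponding fold between batches was 1.01 to 2.26 (median 1.45). Of the variance of log2 CPM over the 24 libraries, the pair (subset and batch) accounted for 95.7% for Ccr7 and 88.7% for Fscn1, and the group (subset and genotype) for 78.4% and 97.3%. Both shares include that of the subset, which alone accounted for 74.4% for Ccr7 and 86.2% for Fscn1. The sources used here do not say what differed between the experiments. In WT cells Ccr7 was at 1476 ± 936 CPM (SD, n = 2) in Esamhi, 974 ± 631 CPM (n = 3) in C_CD8, 694 ± 459.6 CPM (n = 3) in NC_CD8, 609 ± 376 CPM (n = 2) in Esamlo and 49.7 ± 38.3 CPM (n = 2) in PDC. The libraries of neighbours in this order overlapped, except those of PDC and Esamlo cells, which shared no batch. Within batches the WT subsets kept an order. Esamhi was above C_CD8 in batches C and D (815 and 2138 against 348 and 965 CPM). C_CD8 was above NC_CD8 in batches B, C and D (1610, 348 and 965 against 1185, 274 and 622 CPM). Esamlo was above NC_CD8 in batches C and D (343 and 875 against 274 and 622 CPM), the reverse of their means.

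**Figure D2:**
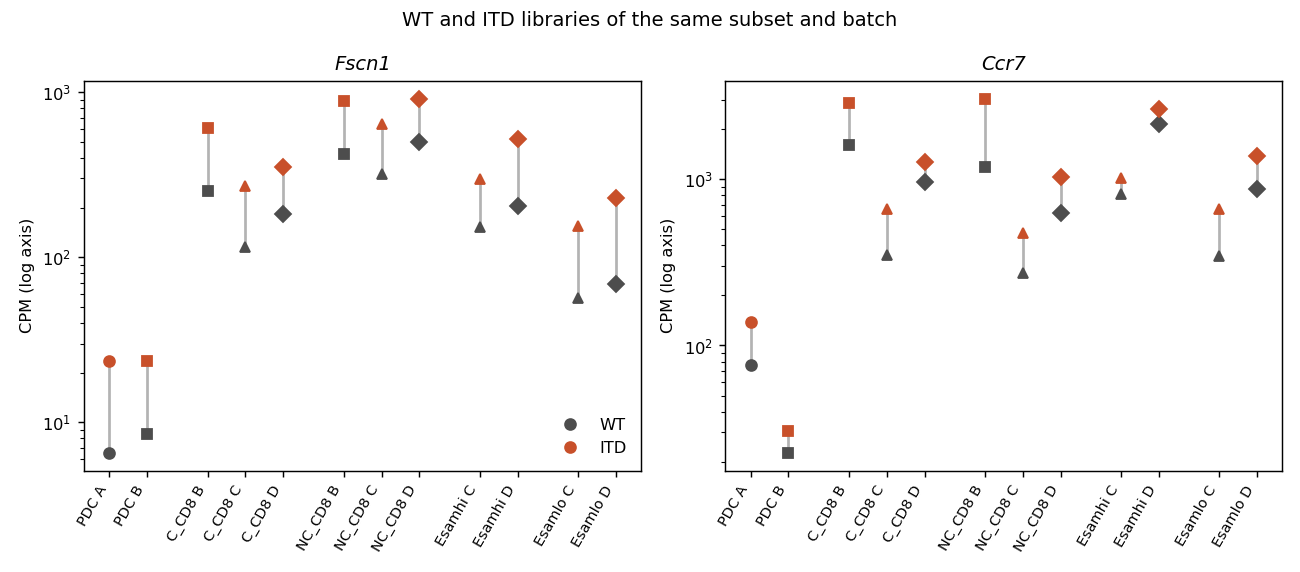
Fscn1 (left) and Ccr7 (right) in CPM on log axes, with the WT (grey) and ITD (orange) library of each subset and batch joined by a line. The ITD point is above the WT point in 12 of 12 pairs for both genes; for Ccr7 the batches of a subset are up to 6.40-fold apart within a genotype.

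Marcksl1 had the subset pattern of Fscn1 at its ends. WT means were 366 ± 72.0 CPM (SD, n = 3) in NC_CD8, 280.2 ± 32.5 CPM (n = 2) in Esamlo, 254 ± 89.5 CPM (n = 2) in Esamhi, 233 ± 48.7 CPM (n = 3) in C_CD8 and 7.79 ± 2.88 CPM (n = 2) in PDC. The 4 subsets other than PDC overlapped with their neighbours, and PDC stood apart. In NC_CD8 cells it was at 397, 283 and 417 CPM in WT and at 706, 482 and 658 CPM in ITD libraries (batches B, C and D). C_CD8 cells held 264, 177 and 258 CPM in WT and 449, 265 and 344 CPM in ITD libraries, so that the lowest ITD library barely passed the highest WT library. The ITD libraries also lay above in Esamlo cells, as for 16.3% of all genes, and the groups overlapped in Esamhi cells and PDC.

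Cd83, the maturation marker, was abundant in every subset but PDC and differed little by genotype. WT means were 3275 ± 737 CPM (SD, n = 2) in Esamhi, 2752 ± 923 CPM (n = 2) in Esamlo, 2422 ± 1064 CPM (n = 3) in C_CD8, 2358 ± 551 CPM (n = 3) in NC_CD8 and 64.0 ± 51.0 CPM (n = 2) in PDC. The ITD means were 3461 ± 684, 3273 ± 567, 2477 ± 1018, 2994 ± 698 and 94.2 ± 93.3 CPM in the same order. The genotypes overlapped in all 5 subsets. In PDC the batch A libraries held 100.04 CPM (WT) and 160.2 CPM (ITD) and the batch B libraries 27.9 and 28.3 CPM, so that batches differed more than genotypes.

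Cd200, the ligand of the inhibitory receptor, had another subset order and no common direction between genotypes. It was highest in PDC, with 150.1 and 176 CPM in WT and 128 and 136 CPM in ITD libraries (batches A and B). Both ITD libraries lay below both WT libraries there, as for 9.08% of all genes. In NC_CD8 cells it was at 16.8, 32.7 and 22.9 CPM in WT and at 13.1, 18.7 and 14.03 CPM in ITD libraries (batches B, C and D), lower in ITD in each batch although the groups overlapped. In Esamhi cells it was at 16.6 and 27.2 CPM in WT and at 28.3 and 61.2 CPM in ITD libraries (batches C and D). The ITD libraries lay above there, as for 15.2% of all genes. In C_CD8 cells it was at 79.6, 84.0 and 106 CPM in WT and at 107, 107 and 102 CPM in ITD libraries, and in Esamlo cells at 18.7 and 15.0 CPM against 18.6 and 20.7 CPM. The WT mean in PDC was 9.67-fold that in Esamlo cells, the lowest subset.

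Tmem123 varied less over the subsets than the other 7 genes. Its WT means ran from 600.4 ± 90.7 CPM (SD, n = 2) in Esamlo to 1066 ± 271 CPM (n = 2) in Esamhi cells, 1.78-fold, and each subset overlapped with its neighbour in the order. In ITD cells the span was 2.44-fold, from 797 CPM in PDC to 1944 CPM in Esamhi cells. PDC held 1086 and 561 CPM in WT and 1014 and 581 CPM in ITD libraries (batches A and B), close together within each batch. C_CD8 cells held 1209, 545 and 813 CPM in WT and 2241, 1086 and 1472 CPM in ITD libraries (batches B, C and D). NC_CD8 cells held 967, 603 and 813 CPM in WT and 1203, 878 and 997 CPM in ITD libraries. Esamhi cells held 875 and 1258 CPM in WT and 1467 and 2420.5 CPM in ITD libraries (batches C and D), and both ITD libraries were above both WT libraries. The ITD mean was 1.87-fold the WT mean in C_CD8 cells, 1.82-fold in Esamhi, 1.48-fold in Esamlo, 1.29-fold in NC_CD8 cells and 0.968-fold in PDC. The libraries of the genotypes were apart in Esamhi and Esamlo cells, with ITD above, as for 15.2% and 16.3% of all genes there.

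Il4i1, with the uncertainty on its counts given above, was at 293 ± 71.3 CPM (SD, n = 3) in NC_CD8, 206 ± 29.1 CPM (n = 2) in Esamhi, 117 ± 25.3 CPM (n = 3) in C_CD8, 94.4 ± 24.1 CPM (n = 2) in Esamlo and 10.2 ± 3.93 CPM (n = 2) in PDC of WT mice. C_CD8 cells held 135, 87.7 and 127 CPM in WT and 296, 194 and 232 CPM in ITD libraries (batches B, C and D). In Esamlo cells it was at 111 and 77.3 CPM in WT and at 165 and 215 CPM in ITD libraries (batches C and D). ITD libraries lay above WT libraries in C_CD8, Esamhi and Esamlo cells, as for 4.7%, 15.2% and 16.3% of all genes there. NC_CD8 cells held 368, 227 and 284 CPM in WT and 618, 345 and 441 CPM in ITD libraries, which overlapped although ITD was higher in each batch. Tbc1d17, which shares its exons on the opposite strand, was at 22.1 to 96.5 CPM over the 24 libraries. Its ITD minus WT difference over the subsets was log2 0.09 ± 0.12 (SE, edgeR quasi-likelihood adjusted p = 0.937, and 0.376 with pairs as blocks). In WT cells it was higher in NC_CD8 than in C_CD8 cells by 1.07 ± 0.24 (adjusted p = 0.00293), the same direction as Il4i1.

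Cacnb3, the channel subunit, separated the 2 CD8+ subsets. C_CD8 cells held 180.4, 95.5 and 169 CPM in WT and 204, 204 and 284 CPM in ITD libraries (batches B, C and D). In NC_CD8 cells it was at 5.54, 21.3 and 14.7 CPM in WT and at 7.40, 15.5 and 31.5 CPM in ITD libraries. Every C_CD8 library was thus above every NC_CD8 library. In Esamhi cells it was at 56.1 and 78.7 CPM in WT and at 104 and 210.1 CPM in ITD libraries (batches C and D), and in Esamlo cells at 13.5 and 13.6 CPM against 30.9 and 49.7 CPM. ITD libraries lay above WT libraries in C_CD8, Esamhi and Esamlo cells, as for 4.7%, 15.2% and 16.3% of all genes there. PDC held 0.889 and 2.85 CPM (20 and 58 reads) in WT and 2.82 and 2.14 CPM in ITD libraries, the lowest level of any of the 8 genes.

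Per kilobase of exon the order between genes differed from the order in CPM. In WT NC_CD8 cells Cd83 stood at 917 CPM per kb, Ccr7 at 351, Tmem123 at 255, Marcksl1 at 228, Fscn1 at 138, Il4i1 at 71.8, Cd200 at 7.27 and Cacnb3 at 3.45 CPM per kb. In WT C_CD8 cells Cacnb3 stood at 37.0 and Cd200 at 27.0 CPM per kb, both higher than in NC_CD8 cells. In WT PDC the highest was Tmem123 with 265 CPM per kb, followed by Cd200 with 49.1 and Ccr7 with 25.1 CPM per kb. The value of Il4i1 per kb carries the uncertainty on its counts given above.

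Within the 12 WT and ITD pairs, 7 of the 8 genes were higher in ITD in at least 10 pairs. The share of all genes that reached 10 pairs was not counted, so nothing is read from this number. The difference of log2 CPM (prior count 2) ran from 0.86 to 1.84 for Fscn1, from 0.30 to 1.36 for Ccr7 and from 0.03 to 1.47 for Il4i1, each higher in 12 of 12 pairs. Over all 18093 genes tested, 198 (1.09%) were higher in 12 of 12 pairs. All ITD libraries lay above all WT libraries for 10.8% of all genes in PDC, 4.7% in C_CD8 and 5.93% in NC_CD8 cells. The share was 15.2% in Esamhi and 16.3% in Esamlo cells. All ITD libraries lay below all WT libraries for 9.08%, 3.02%, 5.75%, 15.4% and 17.3% in the same order of subsets. Marcksl1 (-0.35 to 0.83), Tmem123 (-0.10 to 0.995) and Cd83 (-0.35 to 0.68) were higher in 11 pairs and Cacnb3 (-0.45 to 1.86) in 10 pairs. Cd200 was higher in 5 and lower in 7 pairs, from -0.80 in NC_CD8 cells of batch C to 1.16 in Esamhi cells of batch D. The single lower pair was PDC of batch B for Marcksl1, PDC of batch A for Tmem123 and C_CD8 of batch D for Cd83.

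**Figure D3:**
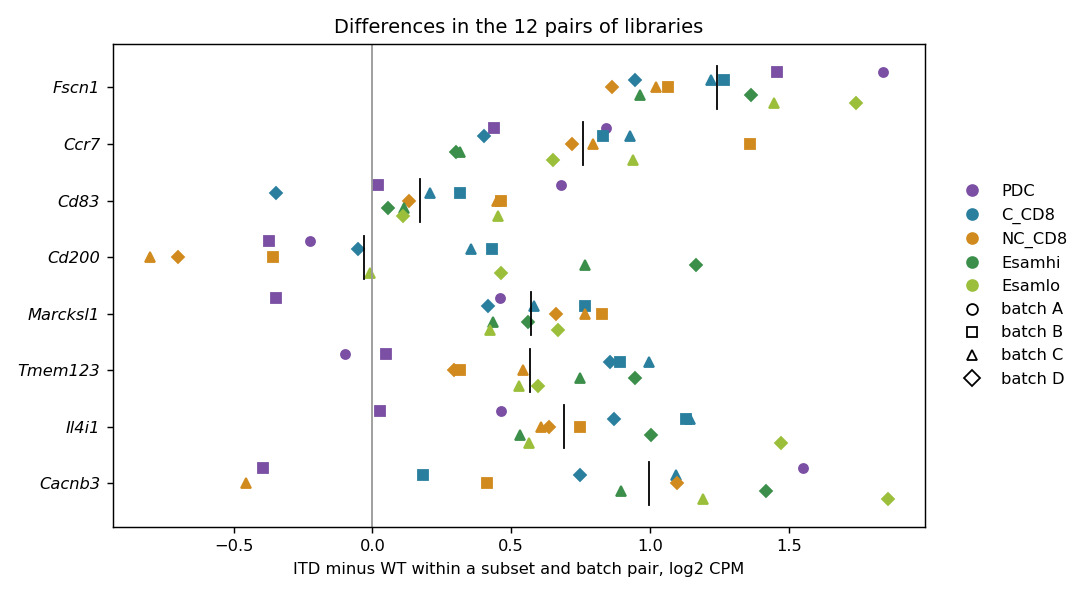
ITD minus WT difference of log2 CPM in each of the 12 pairs (points; colour is the subset, shape the batch) for the 8 genes, with the median of the pairs as a black bar. All points of Fscn1, Ccr7 and Il4i1 lie right of 0, and those of Cd200 lie on both sides, with NC_CD8 and PDC to the left and Esamhi to the right.

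In a model with 1 mean for each of the 10 groups (edgeR quasi-likelihood), the log2 difference between ITD and WT, averaged over the 5 subsets, was 1.32 ± 0.16 (SE) for Fscn1, 0.85 ± 0.26 for Cacnb3, 0.75 ± 0.15 for Il4i1 and 0.73 ± 0.41 for Ccr7. It was 0.53 ± 0.18 for Marcksl1, 0.53 ± 0.17 for Tmem123, 0.25 ± 0.27 for Cd83 and 0.10 ± 0.13 for Cd200. The median of the 8 was 0.63, and that of all genes tested was -0.0015. A gene is called here when its p, adjusted over all tested genes by the Benjamini-Hochberg method, is under 0.05. Of the 8 genes, 2 (Fscn1 and Il4i1) were called, where 0.359% of all genes were. With pairs as blocks, that is with the batch taken out, 6 of the 8 were called, all but Cd83 and Cd200, where 6.83% of all genes were. Nothing is read from these counts, because the genes were chosen with this contrast known. For Ccr7 the block left the difference at 0.69 and reduced its SE from 0.41 to 0.07.

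Within single subsets no member of the 8 was called in the model without blocks. The share of all genes called there was 0.0608% in PDC, 0.0166% in C_CD8, 0.31% in NC_CD8, 0% in Esamhi and 0.00553% in Esamlo cells. In Esamhi cells, where edgeR called no gene at all, 303 of 18093 genes had an unadjusted p under 0.05. With pairs as blocks, 1 of the 8 was called in PDC (0.249% of all genes), 5 in C_CD8 (1.23%), 6 in NC_CD8 (4.79%), 2 in Esamhi (0.0497%) and 2 in Esamlo cells (0.0497%). Fscn1 was among them in each subset. In NC_CD8 cells Cd200 was the 1 of 6 that was lower. For the difference of the ITD effect among the 5 subsets, no gene of the table was called without blocks (0% of 18093 genes by edgeR, with 410 at an unadjusted p under 0.05). With blocks 0.304% of all genes were called, Cd200 and Tmem123 among them. These counts too are given as description.

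The genotype differences of the 8 genes were compared over the 12 pairs by Pearson's r, as a description over pairs that share libraries of a batch and with no test. Fscn1 and Ccr7 differences had r = 0.05 over the 12 pairs, although the levels of the 2 genes had r = 0.83 over the 24 libraries. The differences of Ccr7 and Cd83 had r = 0.70, those of Tmem123 and Il4i1 r = 0.67, those of Cd200 and Tmem123 r = 0.65 and those of Ccr7 and Cd200 r = -0.44. In levels over the 24 libraries, which mainly follow the subsets, Cd83 and Marcksl1 had r = 0.97 and Fscn1 and Il4i1 r = 0.96, while Cd200 had r = -0.66 with Marcksl1.

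Summed levels of markers of other cell types lay apart between the genotypes in some subsets. In NC_CD8 cells the summed level of 12 T cell markers was 169.6 to 221 CPM in WT and 81.0 to 102 CPM in ITD libraries, and that of 8 NK cell markers was 134 to 181 against 80.0 to 107 CPM. The 9 cDC1 markers summed to 943 to 1631 CPM in WT and 639 to 697 CPM in ITD libraries, and 19 early response genes summed to 20564 to 24668 against 25621 to 30279 CPM. The libraries of these sums did not overlap in NC_CD8 cells. Of the 19 early response genes, 13 had a positive log2 difference there without blocks, and none of the T cell, NK cell and cDC1 markers did. Of all genes, 5.93% lay above and 5.75% below in ITD there, and 4.7% and 3.02% in C_CD8 cells. In C_CD8 cells the 9 cDC2 markers summed to 76.7 to 106 CPM in WT and to 115 to 251 CPM in ITD libraries, and the 9 pDC markers to 140.2 to 164 against 175 to 233 CPM. Of these, 8 cDC2 and 7 pDC markers had a positive log2 difference without blocks. In the Esamhi libraries each of these lists overlapped between the genotypes, which does not show that the sums were equal. In a single NC_CD8 library at most 2 of the 12 T cell markers and at most 4 of the 8 NK cell markers were at 0. In both CD8+ subsets none of the cDC1, cDC2, pDC and early response genes was at 0 in any library. In Esamlo cells the cDC2 markers summed to 2420.3 to 2445 CPM in WT and 2588 to 2914 CPM in ITD libraries. The T cell markers (56.1 to 61.6 against 47.1 to 51.0 CPM), the 8 monocyte and neutrophil markers (77.8 to 85.1 against 49.6 to 57.9 CPM) and the pDC markers (252 to 257 against 239 to 240.2 CPM) were lower there in ITD. In PDC the cDC2 markers summed to 1844 to 1949.8 CPM in WT and 2181 to 2233 CPM in ITD libraries, and the pDC markers were lower in ITD, with at least 12572 CPM in WT and at most 12537 CPM in ITD libraries. The libraries of these sums did not overlap either, in these 2 subsets. Over all genes, ITD lay above in 10.8% and below in 9.08% in PDC, and in 16.3% and 17.3% in Esamlo cells. Of the 9 cDC2 markers, 3 in PDC and 5 in Esamlo cells had a positive log2 difference without blocks. Of the 9 pDC markers, 4 did in each of these subsets. In Esamlo cells 2 of the 12 T cell and 3 of the 8 monocyte and neutrophil markers did. The part of these cells in the levels of the 8 genes was not tested.

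Genes that accompany Fscn1 and Ccr7 in mature dendritic cells were examined as 56 companion genes, none of them a member of the 8 described so far, in 4 lists by role. All 56 were tested. On average over the subsets, 2 rose in ITD cells by edgeR's quasi-likelihood test without blocks, where 0.359% of all genes were called. Socs2, a STAT5-induced inhibitor of cytokine signalling, was higher in 12 of 12 pairs and rose by 2.39 ± 0.21 on the log2 scale (SE, adjusted p = 1.45e-05). Cd40, the receptor of T cell help, rose by 0.59 ± 0.07 (adjusted p = 0.000727) and was also higher in all 12 pairs. The median difference of the 56 was 0.32 and 48 were positive, against a median of -0.0015 over all genes, of which 49.6% were positive. With pairs as blocks 29 of 56 were called, 28 higher and 1 lower, where 6.83% of all genes were. Without the pair of PDC libraries from batch A this count was 19, the lowest of the 12 counts with a pair left out, and the highest was 27. The lists were drawn up with earlier results of these data known, so that their direction is not independent evidence.

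Of the 10 costimulatory and surface ligand genes, 3 rose with pairs as blocks. They were Cd40, Fas (0.76 ± 0.12, adjusted p = 0.00465), a death receptor, and Icosl (0.48 ± 0.05, adjusted p = 0.000509, higher in 12 of 12 pairs), the ligand of the T cell receptor ICOS. Without blocks Cd40 alone passed, and Fas (adjusted p = 0.349) and Icosl (adjusted p = 0.191) did not. With blocks the ligands Cd80 (-0.04 ± 0.19) and Cd86 (-0.01 ± 0.08) of CD28 did not pass, nor did Pdcd1lg2 (-0.47 ± 0.16, adjusted p = 0.0988, lower in 11 of 12 pairs). Of the 9 cytokine and chemokine genes, 4 rose with blocks and none without, where the smallest adjusted p of these 4 was 0.171. These were Il12b (1.08 ± 0.19, adjusted p = 0.00711), a subunit of interleukin 12, and the chemokines Ccl22 (1.01 ± 0.17, adjusted p = 0.00492), Ccl5 (0.73 ± 0.13, adjusted p = 0.00602) and Cxcl16 (0.55 ± 0.06, adjusted p = 0.000407). The mean for Il12b rests on PDC (4.22 ± 0.85, adjusted p = 0.0896), with 4 reads in WT and 72 reads in ITD, all 72 in 1 library. In the other 4 subsets its difference with blocks was 0.10 to 0.53, and none passed. Ccl22 had 9 reads in WT and 34 reads in ITD PDC libraries. The mean of Ccl22 was lower in ITD in NC_CD8 cells (7.21 CPM in WT and 5.26 CPM in ITD) and higher in the other subsets.

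Of the 14 genes listed under NF-kB signalling and survival, 8 rose with pairs as blocks. Without blocks Socs2 alone rose, which is described above as STAT5-induced. None of the other genes of this list passed without blocks. Relb, a subunit of the non-canonical pathway, differed by 0.37 ± 0.03 (edgeR adjusted p = 0.000129 with blocks and 0.31 without, higher in 12 of 12 pairs). Nfkbia, the inhibitor that NF-kB itself induces, differed by 0.40 ± 0.05 (0.0017 with blocks and 0.247 without). Birc2, Birc3, Gadd45b, Nfkb2 and Traf1 rose with blocks by 0.18 to 0.32. Nfkb1 (0.09 ± 0.04) and Rel (0.07 ± 0.08), which encode canonical subunits, did not pass with blocks. Of the 23 further genes of CCR7+ dendritic cells, 13 rose and 1 fell with blocks and none passed without. The largest rise was Nudt17 (1.34 ± 0.28, adjusted p = 0.0159, and 0.0823 without blocks). In PDC Nudt17 had only 5 reads in WT and 33 reads in ITD libraries. Its WT and ITD means were 22.2 and 31.1 CPM in C_CD8, 1.48 and 1.64 CPM in NC_CD8 and 10.7 and 21.2 CPM in Esamhi cells. Basp1 (0.52 ± 0.06, adjusted p = 0.00118) was higher in 12 of 12 pairs. Serpinb6b, a serine protease inhibitor, fell by 0.63 on the log2 scale (adjusted p = 0.00349) and was lower in 12 of 12 pairs.

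**Figure D4:**
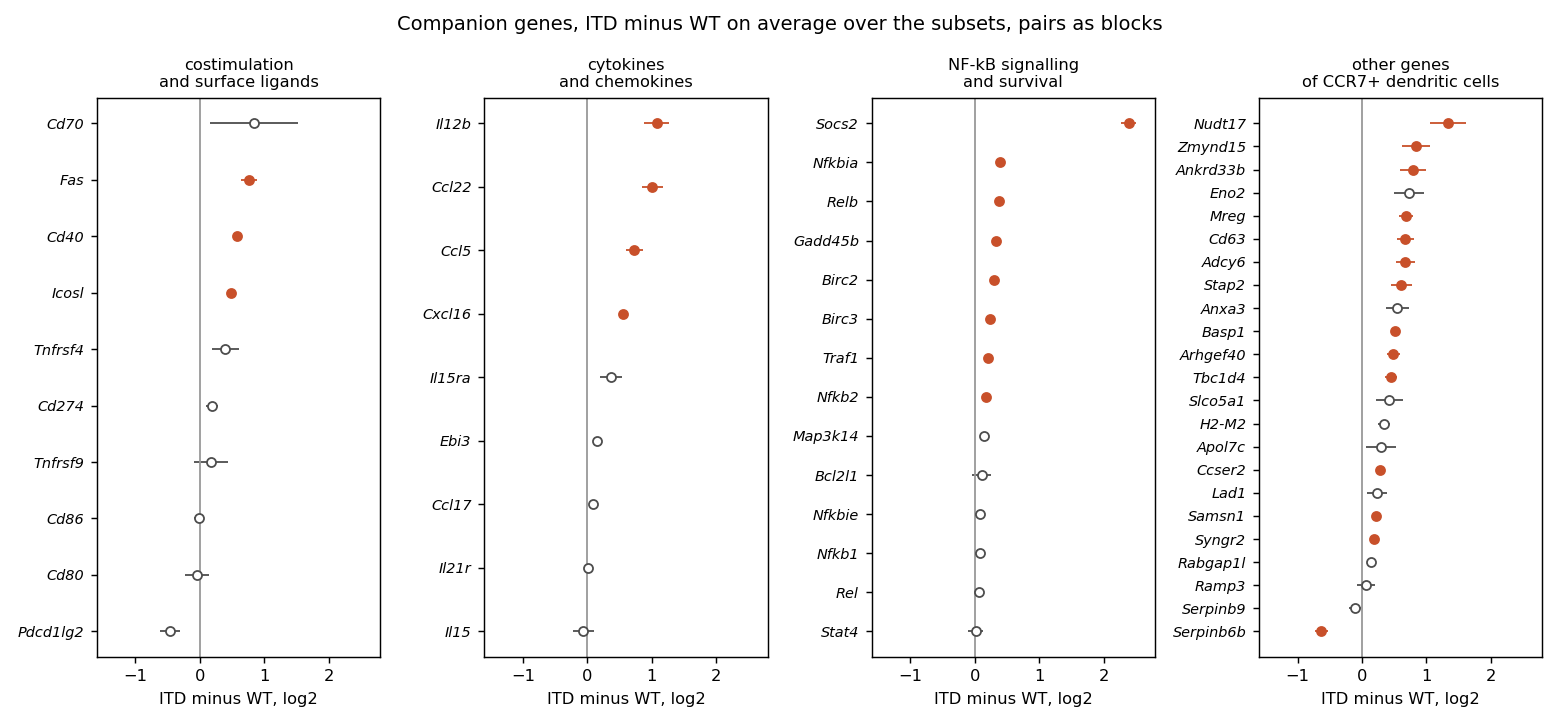
ITD minus WT log2 difference (x axis) of the 56 companion genes, averaged over the 5 subsets, from the edgeR model with pairs as blocks; bars are standard errors, and filled orange points have an adjusted p under 0.05. Of the 29 filled points, 28 lie right of 0 and Serpinb6b lies left; Socs2 is farthest right.

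In single subsets without blocks, companions passed in PDC and in NC_CD8 cells, where 0.0608% and 0.31% of all genes were called. In PDC, Socs2 rose by 5.50 ± 0.59 (edgeR adjusted p = 0.000305), from 1.29 ± 0.258 to 58.6 ± 25.2 CPM (SD, n = 2 each), and Cd40 by 1.36 ± 0.19 (adjusted p = 0.00423), from 5.08 ± 0.330 to 13.01 ± 2.57 CPM. These 2 also passed with pairs as blocks, where 0.249% of all genes were called. Of the 2, 1 passed without PDC_WT replicate 1, PDC_WT replicate 2 or PDC_ITD replicate 2. In NC_CD8 cells, Socs2 rose by 2.95 ± 0.42 (adjusted p = 0.0065), from 3.55 ± 1.53 to 27.4 ± 6.09 CPM (n = 3 each). No companion passed in C_CD8 (7 at an unadjusted p under 0.05 by edgeR, 0 called by DESeq2), in Esamhi (5 unadjusted, 0 by DESeq2) or in Esamlo cells (7 unadjusted, 0 by DESeq2).

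With pairs as blocks, 17 of the 56 companions were called in NC_CD8 cells, 12 higher and 5 lower, where 4.79% of all genes were. In C_CD8 cells 7 were called, all higher, against 1.23% of all genes. In Esamlo cells 1 (Socs2) and in Esamhi cells 0 were called, against 0.0497% of all genes in each. The 5 lower in NC_CD8 cells were Apol7c (-2.26, adjusted p = 0.00433), Tnfrsf9 (-2.46, adjusted p = 0.014), Il15 (-1.46, adjusted p = 0.0146), Serpinb6b (-1.31, adjusted p = 0.0031) and Il21r (-0.63, adjusted p = 0.0122). Among the 12 higher there were Cxcl16 and Nfkbia (0.80 and 0.94, both with adjusted p = 0.000827) and Cd274, the ligand of PD-1 (0.79, adjusted p = 0.022). The cDC1, T cell and NK cell marker sums given above also differed in NC_CD8 cells. The genes named here from the paired model were picked after their values were seen.

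Between WT subsets, the 8 genes and the companions did not follow the same order. Between NC_CD8 and C_CD8 cells 25% of all genes were called, and 4 of the 8: Fscn1 (log2 1.17) and Il4i1 (1.33) higher and Cd200 (-1.89) and Cacnb3 (-3.42) lower in NC_CD8 cells. Of the companions, 13 were higher and 26 lower in NC_CD8 cells. The highest were Stat4, a transducer of interleukin 12 signals (3.71 ± 0.88, edgeR adjusted p = 0.00451), Pdcd1lg2 (2.61 ± 0.41, adjusted p = 0.000127), Nfkb1 (2.43 ± 0.18, adjusted p = 4.92e-08) and Cd274 (2.24 ± 0.47, adjusted p = 0.00179). The lowest were Il12b (-4.98 ± 0.82, adjusted p = 0.000215), Nudt17 (-3.87 ± 0.56, adjusted p = 5.77e-05), Ccl22 (-3.82 ± 0.52, adjusted p = 2.74e-05) and Apol7c (-3.56 ± 0.69, adjusted p = 0.000854). Il12b, for example, was at 274 ± 155 CPM (SD, n = 3) in C_CD8 and 8.70 ± 2.26 CPM (n = 3) in NC_CD8 cells, while Fscn1 was at 184 ± 68.9 and 414 ± 92.0 CPM.

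Against PDC, WT NC_CD8 cells had 7 of the 8 genes called, with Cd200 the 1 that was lower and Tmem123 the 1 that was not called, where 26.4% of all genes were called. Of the companions, 41 were higher and 1, Rabgap1l, lower (-3.55 ± 0.31, edgeR adjusted p = 1.2e-07). Cd80 averaged 74.7 ± 33.3 CPM (SD, n = 3), and in PDC 0.585 ± 0.618 CPM (n = 2, adjusted p = 4.02e-05). Il12b was at 8.70 against 0.0912 CPM (4 reads in the PDC libraries, adjusted p = 0.0027) and Apol7c at 29.0 ± 30.3 against 0.394 ± 0.0708 CPM (adjusted p = 0.000248). Cd70, a TNF family ligand, had no reads in the WT PDC libraries and was at 0.701 CPM in NC_CD8 cells. This is at least 10.01-fold higher against a floor of 3 counts over the PDC libraries (adjusted p = 0.0208).

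Between WT Esamhi and Esamlo cells none of the 8 genes was called without blocks, where 0.658% of all genes were, and 5 were called higher in Esamhi cells with the batch as a block, where 6.36% were. Of the companions Socs2 was higher in Esamhi cells (2.37 ± 0.50, edgeR adjusted p = 0.0361). This call was lost without Esamhi_WT replicate 1, Esamhi_WT replicate 2 or Esamlo_WT replicate 1. With the batch as a block 17 companions were called, all higher in Esamhi cells.

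Relatives and partners of the 8 genes were examined as a list of 11, of which 8 passed the filter on low counts. Cacnb2, another calcium channel beta subunit, rose in ITD cells on average by 0.97 ± 0.14 (SE, edgeR adjusted p = 0.00293, higher in 10 of 12 pairs). In NC_CD8 cells it rose by 1.74 ± 0.28 (adjusted p = 0.0103), from 7.78 ± 2.94 to 26.0 ± 6.93 CPM (SD, n = 3 each). Per kb of exon its mean in these ITD cells was 1.97 CPM per kb and that of Cacnb3 4.53 ± 3.06 CPM per kb. In WT cells Cacnb2 was lower in NC_CD8 than in C_CD8 cells (-1.63 ± 0.28, adjusted p = 0.000307), as was Cacnb3. Cacnb1 differed by 0.53 ± 0.12 (adjusted p = 0.07, and 0.011 with pairs as blocks, higher in 11 of 12 pairs). Cacnb4 had a mean of at most 5.03 CPM in any group, and its mean difference was 0.12 ± 0.44 (adjusted p = 1).

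Cd200r1, the receptor of CD200, differed by 0.49 ± 0.23 in ITD cells (edgeR adjusted p = 0.575, and 0.0191 with pairs as blocks). In WT cells it was higher in NC_CD8 (90.7 ± 31.8 CPM, SD, n = 3) than in C_CD8 cells (5.59 ± 3.69 CPM, n = 3) by log2 4.01 ± 0.51 (adjusted p = 1.55e-05), the reverse of its ligand Cd200. It was higher than in PDC by 1.47 ± 0.53 (adjusted p = 0.0465), a call lost with the batch as a block (adjusted p = 0.355). Marcks, the relative of Marcksl1, differed by 0.17 ± 0.11 (adjusted p = 0.748, and 0.0217 with blocks) and was higher in NC_CD8 cells than in PDC by 2.20 ± 0.26 (adjusted p = 5.46e-06). The chemerin receptor Ccrl2 was at 441.9 to 712 CPM in WT Esamlo and Esamhi cells and at 141 ± 14.6 CPM in NC_CD8 cells, 4.49 ± 0.44 higher than in PDC (adjusted p = 5.47e-07). Its ITD minus WT difference was -0.03 ± 0.16 (adjusted p = 1). Ackr4, a scavenging receptor of the CCR7 ligands, had a mean of at most 0.867 CPM in any group and differed by 1.71 ± 0.66 (adjusted p = 0.396). Fscn2, a relative of Fscn1, had 0 to 23 reads per group. The chemokine ligands Ccl19 and Ccl21a did not pass the filter, with 0 to 21 reads per group.

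The genes with levels most like those of Fscn1 were found by Pearson's r of log2 CPM over the 24 libraries, with no test, since the libraries share subsets and batches. These were Il4i1 (0.96), Pfkfb3 (0.95), a glycolytic regulator, Atp11a (0.95), Gm9027 (0.93) and Sinhcaf (0.93). Pfkfb3 was at 318 CPM in WT and 567 CPM in ITD NC_CD8 cells and at 9.60 and 10.3 CPM in PDC. Most like Ccr7 in level were Tank (0.96), Etv3 (0.96), Gadd45b (0.94), Mmp25 (0.94) and Tnfaip2 (0.94). Tank and Gadd45b encode proteins of stress and NF-kB signalling. Over the 12 pair differences, the genes most like Fscn1 were Psmc3 (0.91), Kctd1 (0.91), Oaz1-ps (0.89), Smdt1 (0.88) and Gbp4 (0.87), and those most like Ccr7 were M6pr-ps (0.89), M6pr (0.87), Hspa8 (0.87), Tmem29 (0.86) and Gm25436 (0.84). No gene was in more than 1 of these 4 lists of 5. The mean level of Psmc3 was lower in ITD in each of the 5 subsets, for example 92.1 CPM in WT and 85.7 CPM in ITD Esamhi cells, while that of Fscn1 was higher. A high r here therefore does not mean a difference in the same direction.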

How the data were processed

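RNA was sequenced from 24 libraries. Per the labels' protocols, RNA from sorted cells was isolated on PicoPure columns (in part after Trizol) and amplified with a SMART-seq v4 low input kit. Per the submitters' processing notes the tools were bcl2fastq 1.8.4, Bowtie2 (listed as 0.4) and DESeq2 1.8.2, with build mm10. The sources used here name no read counter, annotation or strand setting. The authors deposited raw counts per Ensembl gene, which were the values analysed, and a normalized table, which was not used.

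Symbols came from a table of gene identifiers and matched 37607 of 39017 of them, and positions and exons from a GENCODE annotation on the same build, which may differ from the annotation counted. R 4.3.3 with edgeR 4.0.16 was used (TMM, filterByExpr with minimum count 10, quasi-likelihood F test, 10 group means, Benjamini-Hochberg adjustment, threshold 0.05), with no block in the main model (14 residual degrees of freedom). Alternatives were pairs of subset and batch as blocks (7), batch as a block, RLE scaling, DESeq2 1.42.0, no filter, and each library or pair left out. Libraries of 1 pair, which share an experiment batch per the labels, deviated together from their group means in 12 of 12 pairs (r from 0.134 to 0.646). Across batches r was at most 0.148, which is above the lowest r of a pair. With 2 libraries per genotype, both pairs of a subset have the same r, and the r across batches is its negative. In these subsets the 2 values are therefore no independent comparison. The chi-square per degree of freedom between replicates was 13.3 to 86.3, so none was a copy. The model without blocks was run on simulated data without batch effects, for the mean ITD difference only. The model with pairs as blocks was not tested in this way. Log2 CPM used a prior count of 2. Intervals of single libraries are not given: reads carry no molecular identifiers, and the spread between libraries exceeds counting error.

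The 8 genes, the companion lists and the tests were chosen with earlier results of these data known. Of companions, those called on average, and elsewhere up to 4 per direction with the largest difference, are named, with all partners that pass the filter. For likeness the 5 genes with the highest r are named. Plots used Python 3.11.15 with matplotlib 3.10.9.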

Additional observations from a re-analysis of the deposited data

Results flagged for a closer look

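Cd200 differed in direction between subsets: every pair of PDC (mean ITD minus WT log2 difference -0.30 over 2 pairs) and of NC_CD8 cells (-0.62 over 3 pairs) was lower in ITD, and every pair of Esamhi cells (0.97 over 2 pairs) was higher. The model with pairs as blocks called Cd200 for a difference among the subsets, and the model without blocks did not. Because the gene was chosen with its values known, that call is not used as a test, and the difference is given as description.

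The ITD effect on 3 companion genes differed among the subsets in the edgeR model with pairs as blocks, where 0.304% of all genes were called. Socs2 (adjusted p = 0.00162) was higher in ITD in 12 of 12 pairs, by log2 5.50 in PDC and 0.75 in C_CD8 cells. Il21r (adjusted p = 0.029) was higher in C_CD8 cells by 0.88 and lower in NC_CD8 cells by a log2 difference of -0.63. Apol7c (adjusted p = 0.0432), at 29.0 ± 30.3 CPM (SD, n = 3) in WT and 5.43 ± 4.36 CPM (n = 3) in ITD NC_CD8 cells, was lower there and higher in Esamhi cells, with 85.7 against 179 CPM. None of the 3 was called without blocks, where the adjusted p was 0.0749 for Socs2 and 1 for the other 2. Groups of 2 or 3 libraries were not screened for single outlying libraries.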

How the results depend on the processing

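With pairs as replicate blocks the number of companion genes called moved from 2 to 29 for the mean ITD effect, from 0 to 7 in C_CD8, from 1 to 17 in NC_CD8, from 0 to 1 in Esamlo cells and from 0 to 3 for the difference among subsets, and with the batch as a block from 1 to 17 between WT Esamhi and Esamlo cells. The block takes up the differences between batches. DESeq2 called 6 for the mean effect, 4 in NC_CD8 cells, 2 for the difference among subsets and 8 between Esamhi and Esamlo cells. Without a filter 1 was called for the difference. With single libraries left out, counts ran from 2 to 4 (mean effect; 4 without PDC_WT replicate 2), 1 to 2 (PDC), 1 to 2 (NC_CD8; 2 without NC_CD8_WT replicate 1), 0 to 1 (difference among subsets; 1 without NC_CD8_WT replicate 3, Esamhi_ITD replicate 2 or Esamlo_WT replicate 1) and 0 to 1 (Esamhi against Esamlo). They were 0 throughout in C_CD8, Esamhi and Esamlo cells, 32 to 38 for NC_CD8 against C_CD8 and 32 to 42 for NC_CD8 against PDC. With a pair left out of the paired model, an alternative added after the data were seen, counts were 19 without PDC of batch A, 20 without Esamhi of batch D, 22 without Esamhi of batch C, 24 and 25 without C_CD8 of batches C and B, 27 without PDC of batch B and 26 in the other 6.

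For the 8 genes, 48 differences were recomputed under 672 alternatives in all. Of these, 579 moved by less than the spread, and 93 moved by more. The mean difference kept its sign in all 40 alternatives for 6 genes, with 1.23 to 1.39 for Fscn1 and 0.44 to 0.96 for Ccr7. It changed sign in 1 alternative each for Cd83 (to -0.09) and Cd200 (to -0.03). Within subsets, Fscn1 kept its sign in every alternative, and Ccr7 changed sign with a single library left out in PDC (to -0.70) and in Esamhi cells (to -0.54), where that leaves the genotypes with unequal batches. Depth limits Cacnb3 in PDC (20 to 58 reads a library).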
